A study of Mus musculus with 5 samples.

Results

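The genes examined here mark the interstitial cells of the muscle layer of the colon: Kit, Ano1, Etv1 and Thbs4 for interstitial cells of Cajal (ICC) and Pdgfra, Kcnn3 and P2ry1 for PDGFRA+ cells. They were taken as a list of cell type markers, with every probe that maps to them. These 7 genes had 8 probes among the 56605 probes on the array, of which 32994 could be named with 22911 gene symbols, and all 8 probes and 7 genes passed the filter on dim signal. Expression was measured on 5 single-colour arrays, 1 mouse each, in colon tissue of wild-type mice whose strain the labels give as C57BL/B6. In 2 Control mice no treatment is named, and 3 NT-3N 3 hr mice had received NT-3N, a modified human IL-11 that activates the IL-11 receptor, into a vein 3 hr before the colon was taken. The sources used here state different mass units for the dose, so none is given, and because no vehicle injection is named for the Control mice the injection and the agonist cannot be told apart.

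ICC form networks between the smooth muscle layers and around the myenteric plexus of the gut. The receptor tyrosine kinase KIT, switched on by its ligand KITL, maintains them, and the calcium-activated chloride channel ANO1 carries the current that paces slow waves and phasic contraction. PDGFRA+ cells, also called fibroblast-like cells, lie beside ICC in the muscle layer and relax it in response to purines released by enteric neurons, through the P2Y1 receptor (P2ry1) and the SK3 potassium channel (Kcnn3). None of these transcripts belongs to muscle-layer cells alone. Kit is also a mast cell gene and Pdgfra is also carried by fibroblasts beneath the epithelium. Whole colon was assayed, so fewer cells of a type and less RNA per cell cannot be told apart.

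Kit and Pdgfra, the genes that define the cell types, are neighbours on mouse chromosome 5, with 0 protein-coding genes between them in the RefSeq annotation of GRCm38.p6. Upstream sequences are shown for Kit and for Etv1, the member with the smallest p. The reason is that the IL-11 receptor signals in part through STAT factors, which can bind upstream of their targets. Each run gives the 250 bases before the first annotated start of the gene, 5′ to 3′ on the + strand, from RefSeq, with CG dinucleotides in capitals. The Kit sequence lies at chr5:75574737-75574986 and the Etv1 sequence at chr12:38779832-38780081.
Kit: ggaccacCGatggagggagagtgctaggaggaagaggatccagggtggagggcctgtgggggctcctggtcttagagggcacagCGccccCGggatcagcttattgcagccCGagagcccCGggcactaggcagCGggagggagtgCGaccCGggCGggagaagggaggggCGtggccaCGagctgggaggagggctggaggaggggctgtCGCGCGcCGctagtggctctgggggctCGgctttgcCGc
Etv1: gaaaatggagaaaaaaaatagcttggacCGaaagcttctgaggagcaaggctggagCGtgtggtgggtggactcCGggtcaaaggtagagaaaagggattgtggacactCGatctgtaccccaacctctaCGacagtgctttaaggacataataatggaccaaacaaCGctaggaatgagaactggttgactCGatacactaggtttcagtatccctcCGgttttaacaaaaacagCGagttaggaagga
The capitals mark 17 CG dinucleotides upstream of Kit and 9 upstream of Etv1. All 7 genes matched the RefSeq promoter table, with 9 windows of 300 bases, and for Pdgfra and Ano1 the only window lies at a start inside the gene as annotated. The letters TTCNNNGAA, a site that STAT factors recognise and that reads alike on both strands, were in 0 of these 9 windows and in 8.298% of all 32851 windows of the same length. The absence says only that these letters are not in those windows.

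None of the 7 genes passed the test between NT-3N and Control. At an adjusted p under 0.05, 0 of 7 were higher, where 0.125% of all 32917 features tested were called higher, and 0 of 7 were lower, where 0.0182% were called lower. At an unadjusted p under 0.05, 1 of 7 differed (14.3%), beside 9.62% of all features. The arrays of the groups did not overlap for 2 of 7 genes (28.6%), beside 28.4% of all features. These shares are read from so few genes that neither stands apart from the background. With each gene read by its brightest probe, all 7 of the 95% intervals of the main fit lay within 2-fold in either direction. Smaller differences were not resolved with 2 and 3 mice. Over 17 alternative settings with an interval, it stayed within 2-fold in 14 for Thbs4 and in 16 each for Kit and Ano1. For the other genes it did so in all 17. In log2 difference, 4 genes were higher in NT-3N mice and 3 lower, with a median of 0.068 against -0.019 over all features. Over all 32917 features, 15262 were higher and 17655 lower in sign.

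**Figure D1:**
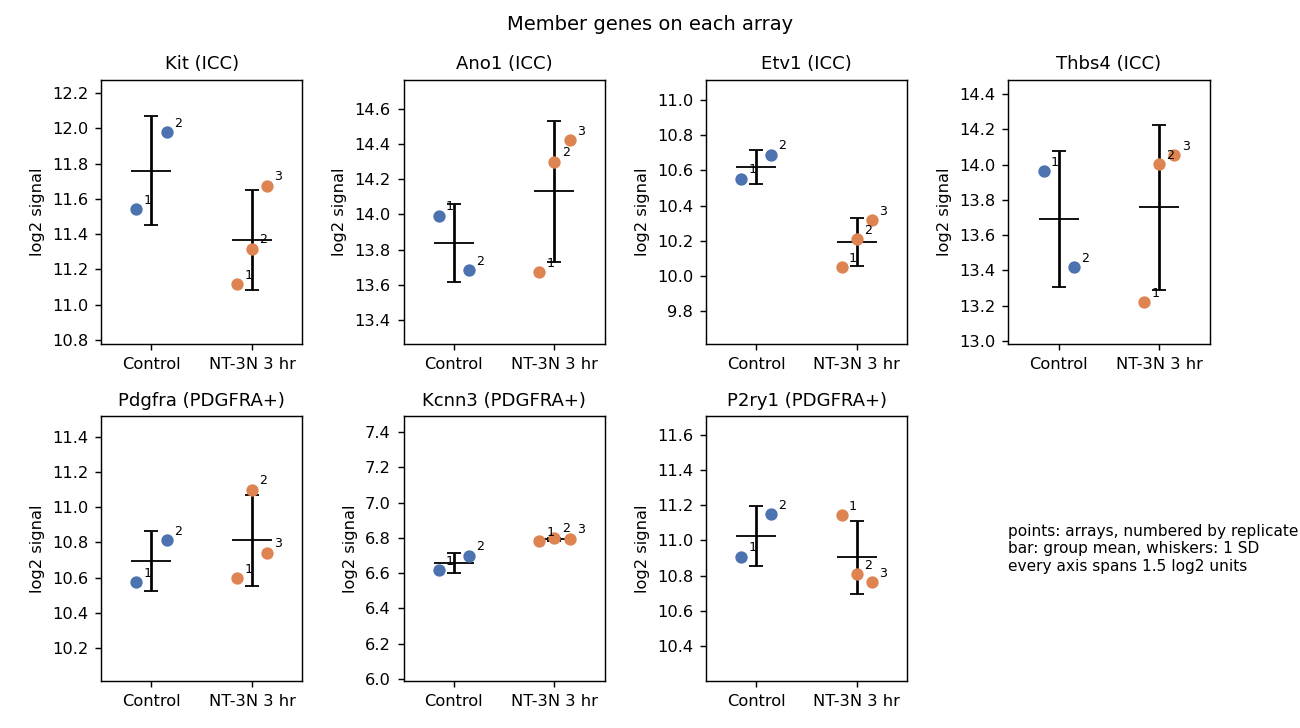
Normalized log2 signal of each of the 7 genes (y axis, a window of 1.5 log2 units in every panel) in Control and NT-3N 3 hr mice (x axis). Points are arrays numbered by replicate, with the group mean and 1 SD; the groups are separate for Etv1 and Kcnn3 and overlap for the other 5 genes, and NT-3N replicate 1 is the lowest point for Kit, Ano1, Etv1 and Thbs4.

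Kit encodes the receptor that ICC depend on. On the quantile-normalized log2 scale its signal was 11.54 and 11.98 in the Control mice and 11.12, 11.32 and 11.67 in the NT-3N mice. The highest NT-3N mouse lay between the Control mice, so the groups overlapped. The means were 11.76 ± 0.31 (SD, n = 2) and 11.37 ± 0.28 (SD, n = 3), a log2 difference of -0.39, its standard error 0.20 and its 95% interval -0.87 to 0.09 (limma, adjusted p = 0.597). Its size depended on single mice of both groups: leaving out Control replicate 2 gave a log2 difference of -0.17, leaving out Control replicate 1 one of -0.61. Without NT-3N replicate 1 it was -0.27, and without NT-3N replicate 3 it was -0.54 (limma, unadjusted p = 0.0268). The unadjusted p for Kit was under 0.05 in 4 of 18 alternative settings and its adjusted p in 0 of them.

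Etv1 encodes an ETS transcription factor that acts downstream of KIT and marks ICC of the myenteric and intramuscular networks. Its log2 signal was 10.55 and 10.69 in Control mice and 10.05, 10.21 and 10.32 in NT-3N mice. Every NT-3N mouse lay below both Control mice. The log2 difference was -0.43, its standard error 0.12 and its 95% interval -0.71 to -0.15, which is 0.744 times the Control level (limma, unadjusted p = 0.00941, adjusted p = 0.342). Etv1 did not pass the test, and its unadjusted p stayed under 0.05 in 16 of 18 alternative settings, the exceptions being the local-pooled-error test (unadjusted p = 0.112) and the fit without Control replicate 2 (limma, unadjusted p = 0.0696).

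Ano1, the chloride channel of the pacemaker current, went the other way in its mean. Its log2 signal was 13.99 and 13.68 in Control mice and 13.67, 14.30 and 14.42 in NT-3N mice. NT-3N replicates 2 and 3 were above both Control mice and replicate 1 was level with the lower of them. The log2 difference was 0.29, its standard error 0.23 and its 95% interval -0.26 to 0.85 (limma, adjusted p = 0.723). Without NT-3N replicate 1 it was 0.52, with an unadjusted p of 0.00532 and an adjusted p of 0.158 by limma, but leaving out Control replicate 2 gave 0.14, and leaving out NT-3N replicate 3 gave 0.15. The unadjusted p for Ano1 was under 0.05 in 3 of 18 alternative settings and its adjusted p in 0 of them. Besides that fit, these were the local-pooled-error test (0.46, unadjusted p = 0.0138) and limma with array quality weights (0.43, unadjusted p = 0.0422).

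Thbs4 encodes thrombospondin 4, a matrix protein used as an ICC marker in the mouse gut. Its log2 signal was 13.96 and 13.42 in Control mice and 13.22, 14.002 and 14.05 in NT-3N mice. The spread within each group exceeded the distance between them. The log2 difference was 0.07 with a 95% interval of -0.62 to 0.76 (limma, adjusted p = 0.954), and it had no stable sign, lying between -0.20 and 0.34 over the alternatives. The 4 ICC genes had a median log2 difference of -0.16 that became 0.036 without NT-3N replicate 1.

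Pdgfra encodes the platelet-derived growth factor receptor that names the second cell type. Its log2 signal was 10.57 and 10.81 in Control mice and 10.60, 11.10 and 10.74 in NT-3N mice. NT-3N replicate 2 was the highest array and the other 2 NT-3N mice lay between the Control mice. The log2 difference was 0.12, its standard error 0.17 and its 95% interval -0.29 to 0.53 (limma, adjusted p = 0.848). The sign rested on single mice, since the log2 difference was -0.025 without NT-3N replicate 2 and -0.00041 without Control replicate 1.

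Kcnn3 encodes SK3, the small-conductance calcium-activated potassium channel through which PDGFRA+ cells hyperpolarize the muscle. The brighter of its probes read 6.62 and 6.70 in log2 signal in Control mice and 6.78, 6.80 and 6.80 in NT-3N mice. All NT-3N mice were above both Control mice, by little: the log2 difference was 0.13, its standard error 0.14 and its 95% interval -0.20 to 0.46 (limma, adjusted p = 0.783). The dimmer probe was well above background on 3 of 5 arrays, the exceptions being Control replicate 1 and NT-3N replicate 1. It read 3.21 and 3.82 against 3.63, 4.11 and 3.85, overlapping, with a log2 difference of 0.35 and a 95% interval of -0.53 to 1.24 (limma, adjusted p = 0.789). Both probes had the same sign and neither passed the test.

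P2ry1 encodes the ADP receptor that receives the purine signal on PDGFRA+ cells. Its log2 signal was 10.91 and 11.15 in Control mice and 11.14, 10.81 and 10.76 in NT-3N mice. NT-3N replicate 1 was level with the higher Control mouse and the other 2 were below both. The log2 difference was -0.12, its standard error 0.15 and its 95% interval -0.48 to 0.24 (limma, adjusted p = 0.818). On leaving out 1 array it ran from -0.24, without Control replicate 1 or NT-3N replicate 1, to -0.0024 without Control replicate 2. The 3 PDGFRA+ cell genes had a median log2 difference of 0.12, which without NT-3N replicate 2 was -0.025.

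**Figure D2:**
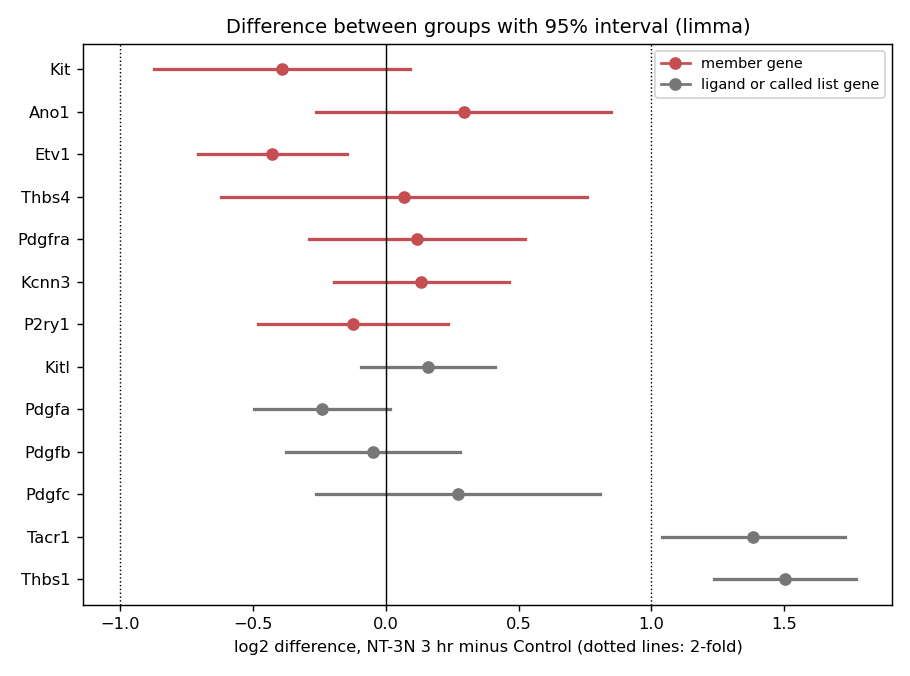
Log2 difference between NT-3N 3 hr and Control (x axis) with its 95% interval from limma for the 7 genes (red) and for their ligands and the called genes Tacr1 and Thbs1 (grey). Every red interval lies between the dotted lines at 2-fold, the Etv1 interval of -0.71 to -0.15 is the red one that leaves out 0, and the intervals of Tacr1 and Thbs1 lie wholly above 2-fold.

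The genes that feed and carry the KIT signal did not pass the test either. Kitl, the KIT ligand, read 10.23 and 10.26 in log2 signal in Control mice and 10.28, 10.45 and 10.49 in NT-3N mice. All NT-3N mice were above the Control mice, with a log2 difference of 0.16 and a standard error of 0.10 (limma, adjusted p = 0.672). Of the 15 KIT ligand and signalling genes, which run from the adaptors Grb2, Shc1 and Gab2 to the brake Spry4, 8 were higher and 7 lower, 0 were called and 0 reached an unadjusted p under 0.05, with a median log2 difference of 0.011. The log2 differences farthest from 0 among those measured on all arrays were -0.32 for Dusp6, a phosphatase that switches ERK off, and -0.31 for Plcg1, a phospholipase that KIT activates.

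Among 22 genes of ICC calcium handling, coupling and transmitter response, 20 were tested, since Ryr3 has no probe named here and Tacr3 was well above background on 1 array. Of these, 5 were higher and 15 lower in sign, beside 15262 and 17655 of all 32917 features, with a median log2 difference of -0.088. In the list 1 was called higher and 0 lower, beside 0.125% and 0.0182% of all features. The called gene was Tacr1, the neurokinin 1 receptor, through which substance P from enteric neurons excites ICC, though neurons and immune cells carry it as well. Tacr1 read 6.80 and 6.86 in log2 signal in Control mice and 8.39, 8.14 and 8.10 in NT-3N mice. Every NT-3N mouse was above both Control mice by more than the spread within either group. Tacr1 rose by a log2 difference of 1.38 with a standard error of 0.14, a 2.61-fold rise with a 95% interval of 2.05 to 3.31 (limma, adjusted p = 0.0426). It was called in 9 of 18 alternatives, with an adjusted p of 0.0146 to 0.491 over them. The local-pooled-error test did not call it (adjusted p = 0.393). Limma did not call it with no filter on dim probes (adjusted p = 0.125) or with no intensity trend (0.120). The limma call was lost without either Control mouse, NT-3N replicate 2 (adjusted p = 0.153) or NT-3N replicate 3 (0.227). The log2 difference of Tacr1 stayed between 1.29 and 1.44 on leaving out an array, and between 1.04 and 1.44 over the 18 alternatives.

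Below the unadjusted threshold in the same list stood 3 lower genes of 20, beside 1538 lower of all 32917 features. None of the 3 passed the test. Gjc1, the gap junction protein connexin 45, read 8.39 and 8.34 against 7.54, 7.83 and 7.61, with a log2 difference of -0.71 (limma, adjusted p = 0.188). Cacna1c, the pore of the L-type calcium channel, had a log2 difference of -0.31 (limma, adjusted p = 0.457), and Mrvi1, which links cGMP signalling to calcium release, one of -0.37 (limma, adjusted p = 0.485). These last 2 genes are named for their unadjusted p, after their values were seen. All 3 are smooth muscle genes too, and the smooth muscle markers were lower as well. Of these markers, 10 of 10 were lower in sign, 5 at an unadjusted p under 0.05 and 0 called. Over all 32917 features, 17655 were lower in sign and 1538 lower at that unadjusted threshold. The smooth muscle markers had a median log2 difference of -0.35 (-0.23 without NT-3N replicate 1). Their summed signal was 476361 to 492502 in Control mice and 346814 to 436230 in NT-3N mice, and all 10 were well above background on every array. The part of smooth muscle in these 3 values was not tested.

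Relatives of the member genes were set beside them. Thbs4 has 4 relatives on the array, of which Thbs1 was called higher. Thbs1 encodes thrombospondin 1, a matrix protein that activates TGF-beta and restrains vessel growth. It read 9.81 and 9.90 in log2 signal in Control mice and 11.46, 11.40 and 11.21 in NT-3N mice, groups far apart. Thbs1 rose by a log2 difference of 1.50 with a standard error of 0.11, a 2.83-fold rise with a 95% interval of 2.35 to 3.41 (limma, adjusted p = 0.0127). It was called in 11 of 18 alternatives. The limma call was lost without Control replicate 1, NT-3N replicate 2 (adjusted p = 0.0910) or NT-3N replicate 3 (0.0776). Limma also lost it with the mean of the gene's probes (adjusted p = 0.0861), no filter on dim probes (0.0718) or no intensity trend (0.0918). Thbs3 had a log2 difference of -0.24 (limma, adjusted p = 0.604), and the median of the 4 relatives was -0.12.

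The other anoctamins and the closest relatives of Etv1 showed no called gene. Of 9 anoctamins beside Ano1, 7 were tested, because Ano3 and Ano5 were not well above background on any array, and 1 was higher and 6 lower in sign with a median log2 difference of -0.076. Ano9 had a log2 difference of -0.16 (limma, adjusted p = 0.730) and Ano7 one of -0.16 (limma, adjusted p = 0.847). Etv5, like Etv1 a target of ERK signalling, had a log2 difference of -0.29 (limma, adjusted p = 0.688), and Etv4 one of 0.26 (limma, adjusted p = 0.754), so these ETS relatives differed in sign from each other.

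The ligands of PDGFRA and its receptor relatives were likewise without a call. Pdgfa, made largely by epithelium, read 13.78 and 13.62 in log2 signal in Control mice and 13.30, 13.53 and 13.54 in NT-3N mice. The NT-3N mice were below both Control mice, with a log2 difference of -0.24 (limma, adjusted p = 0.542). Pdgfb had a log2 difference of -0.048 (limma, adjusted p = 0.929) and Pdgfc one of 0.27 (limma, adjusted p = 0.734). Over the 6 genes of the family, 3 were higher and 3 lower, 0 reached an unadjusted p under 0.05 and the median log2 difference was 0.082.

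Purine signalling, to which P2ry1 and Kcnn3 belong, was followed through 26 further genes: the other receptors named P2Y or P2X, the adenosine receptors, the enzymes that break down nucleotides, the nucleotide carrier Slc17a9 and the other SK channels. P2ry4 was not well above background on any array, which left 25, of which 0 were called, 13 were higher and 12 lower in sign, and the median log2 difference was 0.035. P2rx5, an ATP-gated channel, read 7.68 and 7.21 in log2 signal in Control mice and 6.52, 6.36 and 6.19 in NT-3N mice, with a log2 difference of -1.09 (limma, adjusted p = 0.172). P2ry10, which carries a P2Y name but is a lysophosphatidylserine receptor of lymphocytes, read 5.46 and 4.82 against 5.99, 6.37 and 6.33, with a log2 difference of 1.09 (limma, adjusted p = 0.268). Both genes had groups that did not overlap, as did 28.4% of all features, and neither passed the test. At an unadjusted p under 0.05, 3 of the 25 genes were higher and 2 lower, beside 1629 and 1538 of all 32917 features. Also at an unadjusted p under 0.05, and named for it after their values were seen, were Adora1, the adenosine A1 receptor, with a log2 difference of 1.00, Entpd1, which degrades ATP, with 0.62, and Kcnn2, the SK2 channel, with -0.60 (limma, adjusted p = 0.258, 0.329 and 0.426). Adora1 was called in 1 setting, without NT-3N replicate 1 (limma, adjusted p = 0.0496).

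**Figure D3:**
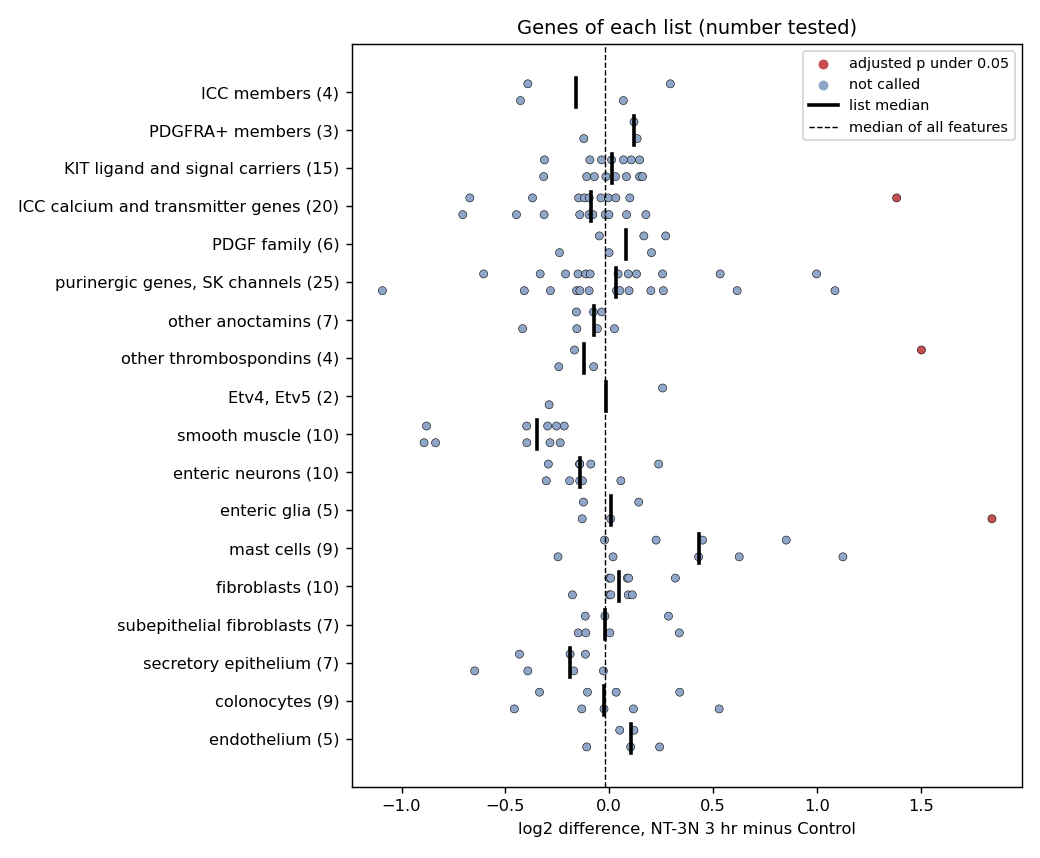
Log2 difference between NT-3N 3 hr and Control (x axis) for every tested gene of the lists, 1 row per list with the number tested, list medians as bars and the median of all features as a dashed line. The medians of the ICC and PDGFRA+ genes (-0.16 and 0.12) lie close to the dashed line, 3 genes carry an adjusted p under 0.05 (Tacr1, Thbs1 and Gfap) and the 10 smooth muscle markers all lie below 0.

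One array stood low for the ICC genes. NT-3N replicate 1 was the lowest of the 5 arrays for 4 of 4 ICC genes and for 0 of 3 PDGFRA+ cell genes, beside 25.6% of all features. Averaged over genes and centred on the 5 arrays, the ICC genes stood at -0.39 on that array and between 0.03 and 0.21 on the others. The PDGFRA+ cell genes stayed between -0.12 and 0.08 on all arrays. The same array was lowest for 8 of 10 enteric neuron markers, 7 of 10 smooth muscle markers and 8 of 10 fibroblast markers. It was also lowest for 4 of 7 subepithelial fibroblast markers and 6 of 7 secretory epithelium markers. For other lists the share was 2 of 5 endothelial, 1 of 5 enteric glia, 1 of 9 mast cell and 0 of 9 colonocyte markers. On that array the enteric neuron markers averaged -0.35, the smooth muscle markers -0.35 and the colonocyte markers 0.17. The share of probes well above background there was 70.9%, within the 70.6% to 73.0% of all arrays. The makeup of the tissue piece was not tested as the source of this pattern.

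**Figure D4:**
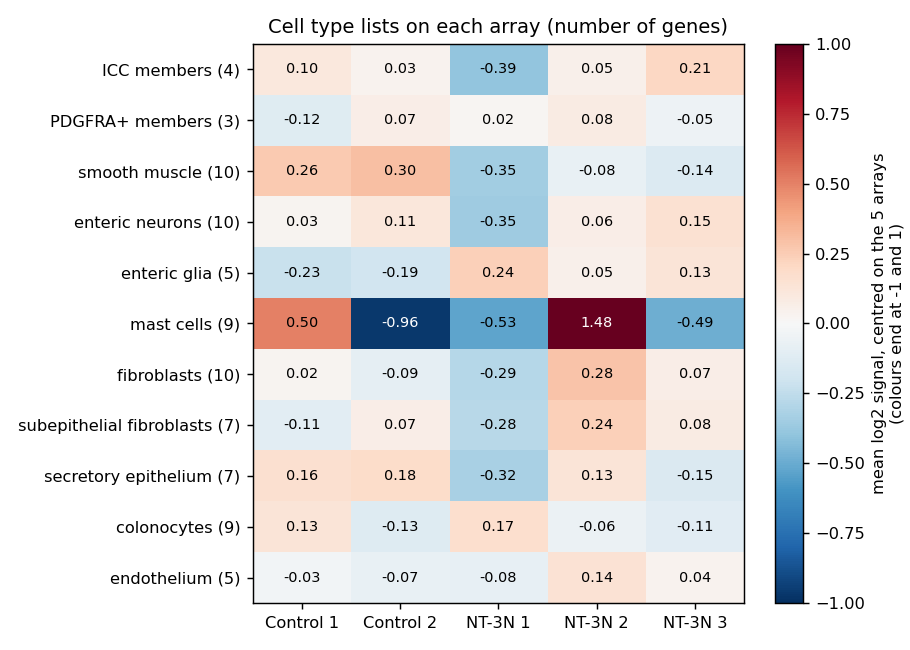
Mean log2 signal of each cell type list on each array, centred on the 5 arrays (colour and printed value, with colours ending at -1 and 1). NT-3N replicate 1 is low for ICC, smooth muscle, enteric neuron, fibroblast, subepithelial fibroblast and secretory lists but not for PDGFRA+ genes, enteric glia or colonocytes. The mast cell list varies most, from -0.96 to 1.48, and stands at -0.53 on NT-3N replicate 1.

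Cells that share these markers, or lie beside ICC, were followed by their own lists. Mast cells, which also carry Kit, varied from mouse to mouse: 9 of 11 markers were tested, Tpsab1 having no probe named here and Ms4a2 no probe that passed the filter. Their summed signal was 2978 to 3360 in Control mice and 2646 to 6031 in NT-3N mice. Cpa3 and Mcpt2 were not well above background on every array. Mcpt4, a mast cell protease, read 8.78 and 5.51 in log2 signal in Control mice and 6.45, 10.55 and 6.33 in NT-3N mice, high in Control replicate 1 and NT-3N replicate 2. Kit was highest in Control replicate 2, where the mast cell list was lowest, at -0.96. On NT-3N replicate 1 both were low, with centred signals of -0.41 for Kit and -0.53 for the list. The centred signals also shared a sign in Control replicate 1, and they differed in sign on the other arrays. The part of mast cells in the Kit values was not tested. The mast cell list had 7 genes higher and 2 lower, 0 called and a median log2 difference of 0.43, which without the first Control mouse was 1.20 and without the second -0.12. Hdc, the histidine decarboxylase of mast cells and other myeloid cells, had a log2 difference of 1.12 (limma, adjusted p = 0.328).

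Fibroblast markers, a list without Pdgfra itself, had 7 genes higher and 3 lower of 10, 0 called and a median log2 difference of 0.047 (0.23 without NT-3N replicate 1, -0.057 without NT-3N replicate 2). Their summed signal was 68662 to 75869 in Control mice and 61395 to 91355 in NT-3N mice, the highest in NT-3N replicate 2, where Pdgfra was highest too. Dcn, the matrix proteoglycan decorin, had a log2 difference of 0.32 and Col1a2, a collagen chain, one of -0.18. The markers of fibroblasts beneath the epithelium, among them F3 (0.34) and Foxl1 (0.29), had a median log2 difference of -0.021, with 0 of 7 called. The part of fibroblasts in the Pdgfra values was not tested.

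Enteric neuron markers had 2 genes higher and 8 lower of 10, 0 called and a median log2 difference of -0.14, which was -0.011 without NT-3N replicate 1. Uchl1, a neuronal hydrolase of ubiquitin, had a log2 difference of -0.30 and Tubb3, a neuronal tubulin, one of -0.29. Enteric glia had 5 of 6 markers tested, Fabp7 not being well above background on any array, with a median log2 difference of 0.0066. Of these, Gfap, the glial filament protein, was called: it read 6.97 and 6.77 in log2 signal in Control mice and 8.83, 8.65 and 8.66 in NT-3N mice, a rise of 1.84 with a standard error of 0.13 (limma, adjusted p = 0.0120). The call was lost without NT-3N replicate 2 (limma, adjusted p = 0.0861) or NT-3N replicate 3 (0.124), and Gfap was called in 13 of 18 alternatives. Erbb3, a receptor of the same cells, had a log2 difference of 0.14. Of the 5 glial markers tested, 3 were higher and 2 lower in sign.

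The smooth muscle genes with the largest differences were Myocd, the coactivator of contractile genes, at -0.89 (limma, adjusted p = 0.148) and Smtn, the actin-binding protein smoothelin, at -0.88 (limma, adjusted p = 0.0619). Smtn was called lower in 4 of 18 alternatives, among them the local-pooled-error test (adjusted p = 0.000574). In the epithelium, 0 of 7 secretory markers and 0 of 9 tested colonocyte markers were called by limma, while the local-pooled-error test called Spdef lower (adjusted p = 0.00458). Spdef, a goblet cell transcription factor, had a log2 difference of -0.65 and Fcgbp, a mucus protein, one of -0.43 in the secretory list (median -0.19), and Slc26a3, a chloride exchanger, had 0.53 and Cdx2, an intestinal transcription factor, -0.46 in the colonocyte list (median -0.025). In the endothelial list, with a median log2 difference of 0.10, Cdh5 had 0.24, Emcn 0.12 and 0 of 5 were called.

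Genes whose pattern over the 5 arrays came nearest to that of Kit and of Pdgfra were found among 16734 named genes measured on all arrays, by the root mean square (RMS) distance of log2 signals, each centred on its own mean. For Kit, which spanned 0.86 log2 units from its lowest to its highest array, they were Grk5 (RMS 0.053), Slc35g2 (RMS 0.056) and Stx1a (RMS 0.057). For Pdgfra, which spanned 0.53, they were Alox5 (RMS 0.024), Pdp1 (RMS 0.025) and Gm5136 (RMS 0.040). With 5 arrays and this many candidates near matches are common, and these are given as a description.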

How the data were processed

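Total RNA of colon was labelled with Cy3 and hybridised to SurePrint G3 Mouse GE 8x60K arrays. The authors scanned the arrays and extracted spots with Feature Extraction 11.0.1.1, and the deposited scanner files hold a background-subtracted intensity per spot, not scaled between arrays. The 5 arrays shared 1 slide and 1 scan time. The log2 table that the authors deposited served as an alternative. It correlated with the main values at 0.99998 or more on each array.

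Outlier spots (69 to 184 of 59305 per array) and control spots were left out. No spot was saturated. The processed intensity was log2-transformed, averaged per probe and quantile-normalized. Probes well above background on at least 2 arrays were kept. A gene was read by its brightest probe, with names from RefSeq (GRCm38.p6). Levels of different probes are not comparable. Groups were compared with limma 3.58.1 (R 4.3.3; lmFit, eBayes with intensity trend; two-sided p-values, adjusted by Benjamini-Hochberg) on 32917 features, of which 41 were called higher and 6 lower. The scripts were tested on simulated data. The number of arrays limits the precision. The methods' local-pooled-error test was rewritten from its description as an alternative, beside other scalings, filters, variance models and leaving out each array.

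Named genes were the 7 members, the ligands, every called gene of each list, its 2 largest differences among genes measured on all arrays, and the 3 genes most like Kit and like Pdgfra. The members and lists were chosen with earlier results of these data known.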

Additional observations from a re-analysis of the deposited data

How the results depend on the processing

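The counts of called member genes, 0 higher and 0 lower, were the same in all 18 alternatives, while those over all features ran from 0 to 192 higher and from 0 to 155 lower. The members' median log2 difference was 0.14 with array quality weights and -0.052 with the replicate number as a block, and -0.054 to 0.14 on leaving out an array. No pairing of mice by replicate number is named. Deviations of same-numbered arrays correlated at 0.13 and 0.036, and these 2 values alone cannot show whether mice were paired. In the fit with a replicate block, Kit had a log2 difference of -0.54 (limma, adjusted p = 0.602), Etv1 one of -0.49 (0.608), and Thbs4 turned to -0.080. The calls of Tacr1 (adjusted p = 0.491), Thbs1 (0.346) and Gfap (0.346) were lost with it. No Control mouse shares the replicate number of NT-3N replicate 3, so that array adds nothing to the comparison within blocks. The log2 differences are therefore those of the fit without NT-3N replicate 3, and the block is no separate check on them. Gfap also missed the threshold with no filter on dim probes (0.0718) and with no intensity trend (0.0569). Among named genes, other signs that turned were those of Pdgfb with array quality weights (0.011) and of Mcpt4 in the local-pooled-error test (-0.70).

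On leaving out an array, the log2 difference ran from -0.20 to 0.34 for Thbs4, from -0.025 to 0.24 for Pdgfra, from -0.16 to 0.061 for Pdgfb, from -0.079 to 0.62 for Pdgfc, from -0.024 to 0.31 for Erbb3, from -0.42 to 0.10 for Ano7, from -1.01 to 2.26 for Mcpt4 and from -0.35 to 0.0060 for Col1a2. List medians near 0 have no settled sign: over the 18 alternatives they ran from -0.017 to 0.058 for KIT signalling, from -0.12 to 0.049 for purine signalling, from -0.062 to 0.18 for the PDGF family, from -0.25 to 0.18 for the Thbs relatives, from -0.21 to 0.26 for Etv4 and Etv5, from -0.11 to 0.066 for enteric glia, from -0.12 to 1.20 for mast cells, from -0.057 to 0.23 for fibroblasts, from -0.16 to 0.13 for subepithelial fibroblasts and from -0.096 to 0.045 for colonocytes. The causes were not tested. A normexp background on the median spot signal, chosen after seeing the data because the files used here hold no mean spot signal, turned the sign of no named gene, and Tacr1 missed the threshold with it (limma, adjusted p = 0.0510). Leaving out a Control array leaves 1 mouse, assumed to vary like the NT-3N mice. The dimmer Kcnn3 probe had no value with the deposited log2 values or with the stricter filter.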
